A study of Rattus norvegicus with 3 samples.

Results

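The genes described here encode the Wnt ligands, their receptors and inhibitors, the planar cell polarity proteins and the core of the beta-catenin pathway, as they were expressed in rat commissural neuron cultures. They were taken from the deposited expression table by gene symbol, ignoring case: names starting with Wnt, Fzd, Dvl, Sfrp, Prickle or Celsr and a digit, Vangl1 and Vangl2, and 15 single genes from Lrp5 to Tcf7l2. The rule found 59 of 26353 table entries, which carry 57 distinct symbols. The entries written FZD8 and DKK1 in capitals were listed at 0 FPKM in all 3 libraries and were not tested, while the entries Fzd8 and Dkk1 held values. The other 57 entries were above 0 in at least 1 library.

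The samples are 3 libraries of polyadenylated RNA from commissural neurons, the spinal cord neurons whose axons cross the ventral midline. The cells came from rat embryos of embryonic day 13 and had 2 days of culture, with no treatment, allele or strain named in the labels. All 3 form 1 group, called libraries 1, 2 and 3 by their labelled replicate numbers, so the values below are levels and within-library ratios, not responses. The labels do not say whether each library had its own culture or animals, and the p-values cover no more than the spread of these 3 samples, part or all of which may be technical.

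Secreted Wnt proteins bind Frizzled receptors on the cell surface. With the co-receptors Lrp5 or Lrp6 this stops the destruction of beta-catenin, which then acts on genes through Tcf and Lef factors. In planar cell polarity, Frizzled proteins take the opposite side of a cell border from Vangl and Prickle proteins, while Celsr proteins lie on both sides. Together they give a sheet of cells a common direction, with Dishevelled as the shared cytoplasmic adaptor. In the spinal cord, Wnt proteins are known to guide commissural axons along the head-to-tail axis after they have crossed the midline, a turn that needs Fzd3, Celsr3 and Vangl2, while Ryk is known as a receptor for repulsion by Wnt proteins.

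The deposited unit is FPKM, which counts sequenced fragments relative to transcript length and to the mapped fragments of the library, so that levels of different genes can be compared per length. FPKM keeps no absolute depth, so no counting intervals were computed. The labelled cell type was checked against 7 commissural neuron markers, and 7 of 7 lay above 1 FPKM by limma (one-sided, p-values adjusted over all entries by Benjamini and Hochberg, as throughout). All 7 progenitor markers passed as well, as did 63.7% of all 17611 entries tested, so these counts do not separate the cell types. Library 2 stands apart: the 20 genes listed for their long transcripts were lowest there in 20 of 20 cases, with a median log2 difference from the mean of libraries 1 and 3 of -1.01, against 0.14 over 8069 described entries with a mean of at least 5 FPKM. Progenitor markers summed to 949, 1206 and 980 FPKM in libraries 1, 2 and 3, and 7 of 7 were highest in library 2, as were 69.6% of the described entries. Most of the sum came from Fabp7 (492, 686 and 514 FPKM) and Vim (376, 428 and 389 FPKM). Hes5, at 17.54, 17.57 and 13.19 FPKM, hardly differed between libraries 1 and 2. Commissural neuron markers summed to 294, 227 and 304 FPKM, and 4 of 7 were lowest in library 2, against 18.6% of the described entries. Their log2 differences were -0.67 for Robo3, -0.54 for Dcc, -0.44 for Cntn2 and -0.14 for Lhx9. The other 3 were highest there, at 0.06 for Boc, 0.03 for Barhl1 and 0.25 for Barhl2.

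Expression ran from Ctnnb1 at 170 FPKM to Wnt8a at 0.010 FPKM. Of the 57 members tested, 34 lay above 1 FPKM in limma's test (59.6%). Of all 17611 entries tested, 63.7% did, and of those with a full gene name 67.7%, so the share among the members was near but below both. The median of the 59 members, with 2 untested entries at 0 included, was 1.65 FPKM. That of all tested entries was 4.81 FPKM. The groups differed in how many of their genes passed. All 3 Dishevelled genes passed, as did 7 of 8 core planar polarity genes, 6 of 7 beta-catenin arm genes, 3 of 6 other receptors, 4 of 8 tested Frizzled receptors, 3 of 6 tested secreted antagonists and 8 of 19 Wnt ligands. When libraries were scaled to a sum of 1000000, which a few unnamed entries dominate, 5 of 57 passed, so these counts hold for the deposited scale.

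**Figure D1:**
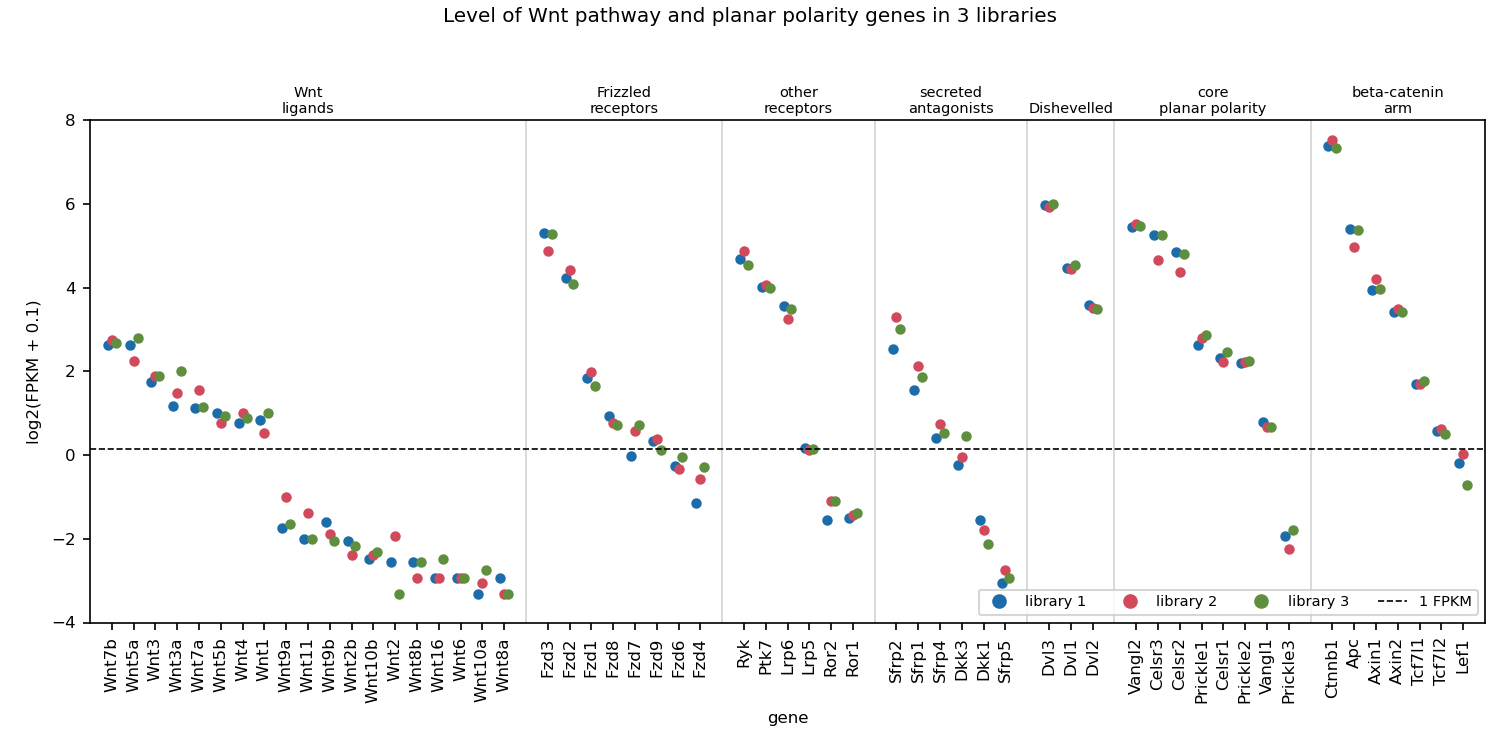
Level of the 57 members above 0 in each library, as log2(FPKM + 0.1), grouped by role, with the dashed line at 1 FPKM. The 8 highest Wnt ligands lie above the line in all 3 libraries and the other 11 below it, and library 2 (red) is lowest for Fzd3, Celsr3, Celsr2 and Apc.

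Ratios between members were tested within each library by limma, on the log2(FPKM + 0.1) scale, against a reference gene for each family, with Benjamini-Hochberg adjustment over all table entries. All ratios to a reference share that gene's error, so limma's p-values can be too small where that gene is noisy, and the pooled spread can be too wide for a pair that moves together. Each ratio is therefore given with its range over the libraries. A further calculation, chosen after the data were seen, added each gene's own variance to that of the reference. Of 43 member pairs, 40 differed past the threshold, and the further calculation changed 1 call, that of Celsr2 and Celsr3. Most table entries differed from these references too: 35.8% were lower and 58.7% higher than Wnt4, the reference of 18 pairs. The count of 40 is therefore not particular to the members.

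Of the Wnt ligands, Wnt7b and Wnt5a were the highest. Wnt7b, known from the developing nervous system for its part in vessel growth and dendrite growth, had 6.04, 6.63 and 6.27 FPKM in libraries 1, 2 and 3. Wnt5a, a ligand best known for signalling without beta-catenin, had 6.06, 4.61 and 6.82 FPKM. The values of these genes overlapped, and Wnt5a was lowest in library 2, where 1.8% of described entries had a deviation as low or lower. Wnt3 followed at 3.25, 3.59 and 3.61 FPKM. Wnt3a, a roof plate ligand that acts through beta-catenin, had 2.14, 2.69 and 3.90 FPKM and was the most variable of the ligands above 1 FPKM. Wnt7a had 2.09, 2.82 and 2.10 FPKM and was highest in library 2.

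The remaining ligands above 1 FPKM lay close together. Wnt5b had 1.78 ± 0.153 FPKM (SD, n = 3), Wnt4 1.75 ± 0.165 and Wnt1, another roof plate ligand, 1.65 ± 0.278. Wnt4, which the floor plate is known to make in a gradient along the cord, served as the reference. Of the 18 other ligands, 5 were higher than Wnt4 in limma's test, while 58.7% of all entries were, and 11 were lower, while 35.8% of all entries were. Wnt7b exceeded Wnt4 by 3.47-fold (95% interval 3.02 to 3.98, 3.33 to 3.63 over the libraries, limma's adjusted p = 8.50e-09). Wnt5a exceeded it by 3.17-fold, with 2.33 in the lowest and 3.74 in the highest library. Wnt3 exceeded Wnt4 by 1.94-fold (95% interval 1.65 to 2.28, 1.83 to 2.01 over the libraries). Wnt3a exceeded Wnt4 by 1.58-fold (95% interval 1.24 to 2.02, 1.33 to 2.16 over the libraries). Wnt7a was higher by 1.31-fold (95% interval 1.08 to 1.58, 1.19 to 1.45 over the libraries, limma's adjusted p = 0.0118, higher in 3 of 3 libraries). The calls of Wnt3a and Wnt7a were lost against a margin of 1.5-fold. Wnt5b and Wnt1 did not differ from Wnt4 past the threshold, with log2 ratios of 0.02 (95% interval -0.30 to 0.34) and -0.09 (95% interval -0.45 to 0.26). Over the libraries these ran from -0.24 to 0.25 for Wnt5b and from -0.48 to 0.11 for Wnt1.

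A wide gap separated these 8 ligands from the rest. The highest of the 11 others, Wnt9a, had 0.20, 0.40 and 0.22 FPKM, and its highest library lay below the lowest library of Wnt1 (1.35 FPKM). Wnt11 (0.193 ± 0.0751 FPKM), Wnt9b (0.180 ± 0.0458) and Wnt2b (0.117 ± 0.0252) came next. Wnt10b, Wnt2, Wnt8b, Wnt16, Wnt6, Wnt10a and Wnt8a each had a mean of 0.090 FPKM or less, with Wnt10a listed at 0 in library 1, Wnt2 in library 3 and Wnt8a in libraries 2 and 3.

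Several Wnt genes lie next to each other in the genome, and in RefSeq's annotation of the rat assembly GRCr8 4 pairs of members are consecutive protein-coding genes. In 3 of these pairs only 1 neighbour lay above 1 FPKM in limma's test. Wnt3 had 14.1, 21.1 and 25.8 times the FPKM of Wnt9b in libraries 1, 2 and 3. Wnt3a had 10.7, 6.7 and 17.7 times that of Wnt9a, and Wnt1 had 21.1, 15.0 and 19.0 times that of Wnt10b. In the fourth pair, Wnt6 and Wnt10a, both means were 0.030 FPKM or less. Wnt3 and Wnt9b are transcribed away from each other from starts 23159 bases apart, and Wnt3a and Wnt9a from starts 15772 bases apart, while Wnt6 and Wnt10a point the same way. These neighbour ratios were computed after the levels were seen and are given without a test. The promoter windows of Wnt3 and Wnt9b are shown because the neighbours differ so much in level. Each runs from 250 bases before to 50 after the start, from RefSeq on GRCr8, at chr10:89179974-89180273 on the plus strand for Wnt3 and chr10:89157016-89157315 on the minus strand for Wnt9b. Capitals mark the binding word of Tcf and Lef factors described with Axin2 below, which the Wnt9b window does not hold.
Wnt3: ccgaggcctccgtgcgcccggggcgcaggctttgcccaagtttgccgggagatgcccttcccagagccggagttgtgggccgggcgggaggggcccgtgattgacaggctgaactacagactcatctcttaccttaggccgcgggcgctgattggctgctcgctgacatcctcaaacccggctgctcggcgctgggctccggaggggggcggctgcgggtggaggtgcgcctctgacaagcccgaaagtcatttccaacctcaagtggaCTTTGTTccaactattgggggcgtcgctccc
Wnt9b: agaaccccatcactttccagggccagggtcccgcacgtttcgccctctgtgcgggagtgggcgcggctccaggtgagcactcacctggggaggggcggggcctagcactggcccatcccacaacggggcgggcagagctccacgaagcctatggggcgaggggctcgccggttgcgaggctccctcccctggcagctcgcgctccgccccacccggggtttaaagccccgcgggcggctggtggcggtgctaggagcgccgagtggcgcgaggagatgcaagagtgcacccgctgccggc
Both windows are rich in G and C, with 65.7% for Wnt3 and 72.0% for Wnt9b, and hold 24 and 28 CpG dinucleotides.

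The libraries are of whole cultures, in which fewer cells of a type and less RNA per cell cannot be told apart. Roof plate cells are a known source of Wnt1 and Wnt3a. Of 5 roof plate markers, 2 lay above 1 FPKM, Msx1 and Msx2, which dorsal progenitors also express. Lmx1a, which defines the roof plate, stood at 0.163 ± 0.0153 FPKM and Gdf7 at 0.04, 0.04 and 0. Bmp6 had 0.63, 0.62 and 0.85 FPKM. The summed level of the list was 7.13, 6.81 and 7.47 FPKM in libraries 1 to 3, most of it from Msx1 (4.67, 4.36 and 4.95 FPKM). The sum therefore does not follow roof plate cells alone. Wnt3a went from 2.14 to 3.90 FPKM over the same libraries. Of 5 floor plate markers, 2 passed, Ntn1 and Spon1, and Foxa2 was at 0 in all 3 libraries. The list summed to 18.5, 20.6 and 21.1 FPKM, most of it from Ntn1 (16.75, 19.14 and 19.75 FPKM). The part of these cells in the ligand levels was not tested.

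Among the Frizzled receptors, Fzd3 was the highest, followed by Fzd2. Fzd3, the receptor needed for Wnt guidance of commissural axons, had 39.2, 29.4 and 38.6 FPKM in libraries 1, 2 and 3, and 86.9% of tested entries had a lower mean. Fzd2 had 18.5, 21.4 and 16.8 FPKM. Every library of Fzd3 lay above every library of Fzd2, but the genes moved in opposite directions in library 2. Fzd3 therefore held 59.3%, 48.9% and 60.3% of the summed Frizzled FPKM in libraries 1, 2 and 3, and Fzd2 28.0%, 35.6% and 26.2%. Fzd3 exceeded Fzd2 by 1.88-fold (95% interval 1.40 to 2.52, 1.37 to 2.30 over the libraries, limma's adjusted p = 2.83e-05), a call lost without library 3 (log2 ratio of Fzd2 to Fzd3 -0.77, adjusted p = 0.0758) and against a margin of 1.5-fold (adjusted p = 0.0789).

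The other Frizzled genes were far lower. Fzd1 had 3.50, 3.86 and 3.01 FPKM and Fzd8 1.80, 1.59 and 1.53, and both lay above 1 FPKM. Fzd7 (0.89, 1.38 and 1.55 FPKM) and Fzd9 (1.16, 1.20 and 0.99) did not pass, though Fzd7 did without library 1 (limma's adjusted p = 0.00464). Fzd6, the closest relative of Fzd3 in planar polarity, had 0.74, 0.69 and 0.86 FPKM, and Fzd4 0.35, 0.57 and 0.72. Fzd4 and Fzd7 were both lowest in library 1. Of 4 microglia and macrophage markers, 2 passed, Aif1 and Csf1r, none was at 0, and the list summed to 7.01, 10.7 and 10.9 FPKM in libraries 1, 2 and 3, while 4 endothelial markers summed to 0.39, 0.49 and 0.32 FPKM. The part of these cells in the Fzd4 and Fzd7 levels was not tested. All 7 other Frizzled genes tested were lower than Fzd3 in limma's test, as were 81.7% of all entries. Fzd3 exceeded Fzd1 by 10.0-fold (7.45 to 12.5 over the libraries) and Fzd6 by 41.3-fold (37.3 to 46.8 over the libraries).

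**Figure D2:**
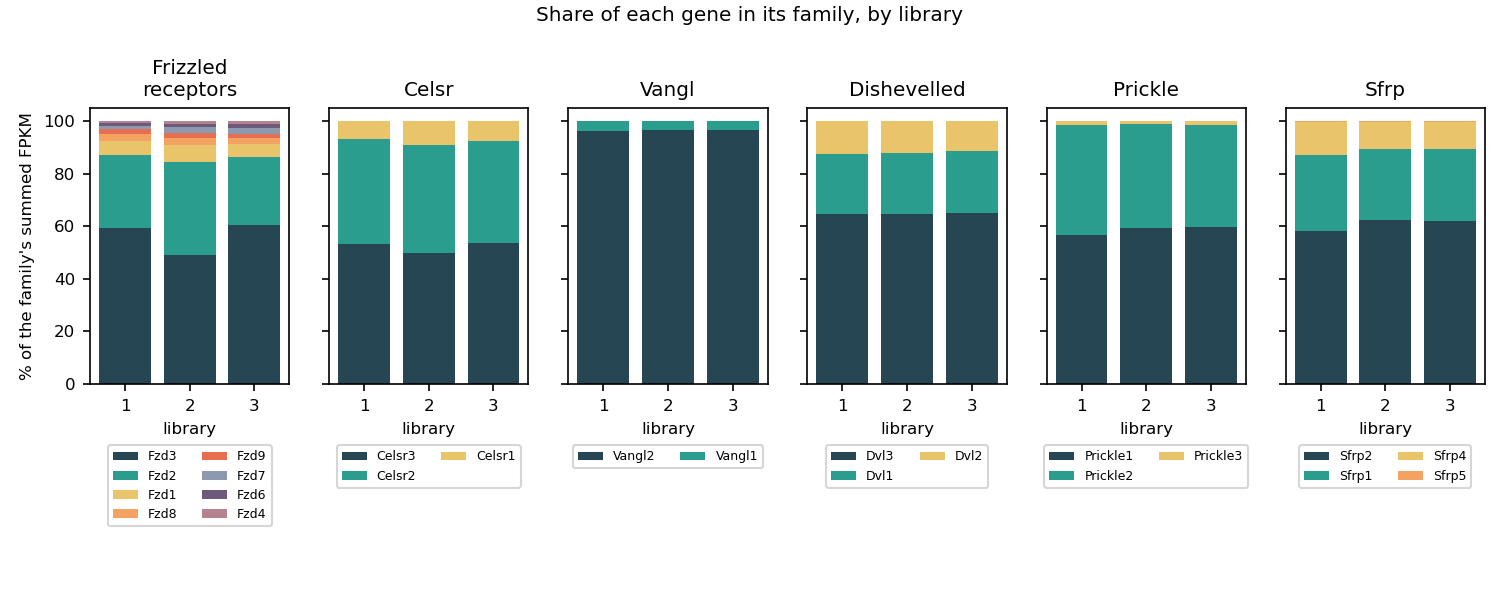
Share of each gene in the summed FPKM of its family, in percent, for libraries 1, 2 and 3, with 1 bar per library and genes stacked from the highest in library 1 upward. Fzd3 takes 48.9% to 60.3% of the Frizzled sum and Vangl2 over 96% of the Vangl sum, while the Dishevelled shares differ by about 1 point between libraries.

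The receptors outside the Frizzled family ranged from Ryk, the highest, to Ror1, the lowest, with Lrp5 at about 1 FPKM. Ryk, the receptor for Wnt repulsion, had 25.6, 29.2 and 23.0 FPKM. Ptk7, a transmembrane pseudokinase of planar polarity, had 15.9, 16.6 and 15.9 FPKM. Their libraries did not overlap, and Ryk exceeded Ptk7 by 1.59-fold (95% interval 1.38 to 1.84, 1.44 to 1.75 over the libraries, limma's adjusted p = 1.98e-08), a call lost against a margin of 1.5-fold. Ror1 and Ror2, receptor tyrosine kinases that are among the known receptors of Wnt5a, had 0.267 ± 0.0153 and 0.327 ± 0.0751 FPKM and did not lie above 1 FPKM. All 3 genes were lower than Ryk in limma's test, as were 78.9% of all entries. Of the beta-catenin co-receptors, Lrp6 had 11.7, 9.34 and 11.0 FPKM and Lrp5 1.02, 0.99 and 1.00. Lrp5 did not lie above 1 FPKM (limma's adjusted p = 0.740), and Lrp6 exceeded it by 9.74-fold (8.66 to 10.5 over the libraries), with 59.6% of all entries lower than Lrp6.

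Dishevelled, the adaptor of both branches, was expressed from all 3 genes at stable levels. Dvl3 had 62.4, 60.3 and 63.7 FPKM, Dvl1 21.8, 21.8 and 23.1, and Dvl2 12.0, 11.4 and 11.1, and the groups of values did not overlap. Dvl3 made 64.5% to 65.1% of the Dishevelled sum. Dvl3 exceeded Dvl1 by 2.79-fold (2.75 to 2.85 over the libraries), with 18.1% of all entries higher than Dvl1. Dvl1 exceeded Dvl2 by 1.93-fold (95% interval 1.70 to 2.19, 1.82 to 2.07 over the libraries, limma's adjusted p = 3.26e-08), with 76.3% of all entries lower than Dvl1.

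The core planar polarity genes differed in how their families shared expression. Vangl2, the transmembrane protein whose loss gives open neural tubes, had 43.3, 45.5 and 44.3 FPKM, and its relative Vangl1 had 1.64, 1.49 and 1.49. Vangl2 made 96.4% to 96.8% of their sum and exceeded Vangl1 by 27.1-fold (95% interval 22.5 to 32.8, 24.9 to 28.7 over the libraries, limma's adjusted p = 1.26e-08), with 88.1% of all entries lower than Vangl2. Vangl1 still lay above 1 FPKM (limma's adjusted p = 0.00116).

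The Celsr genes encode very large cadherins that span the membrane. Celsr3, the member of postmitotic neurons and axon tracts, had 38.3, 25.2 and 38.3 FPKM, and Celsr2 28.7, 20.8 and 27.8. Both were lowest in library 2. In each library Celsr2 lay below Celsr3, by 1.21-fold to 1.38-fold, but limma's interval for the log2 ratio, -0.98 to 0.21, included 0 (Benjamini-Hochberg adjusted p = 0.224). Without library 2 the pair passed (adjusted p = 0.00102), as it did with the variances of both genes summed (adjusted p = 0.0404). Celsr1, the member of dividing progenitors, had 4.84, 4.58 and 5.37 FPKM and was lower than Celsr3 by 6.65-fold (5.40 to 7.78 over the libraries), with 78.7% of all entries lower than Celsr3. Celsr1 made 6.74%, 9.07% and 7.52% of the Celsr sum.

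Prickle proteins bind Vangl on the inner face of the membrane. Prickle1 had 6.11, 6.85 and 7.14 FPKM and Prickle2 4.48, 4.60 and 4.61, without overlap. Prickle1 exceeded Prickle2 by 1.46-fold (95% interval 1.23 to 1.72, 1.36 to 1.54 over the libraries, limma's adjusted p = 1.60e-05). This was not past a margin of 1.5-fold, and 52.2% of all entries were lower than Prickle1. Prickle3 had 0.153 ± 0.0404 FPKM and did not lie above 1 FPKM.

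**Figure D3:**
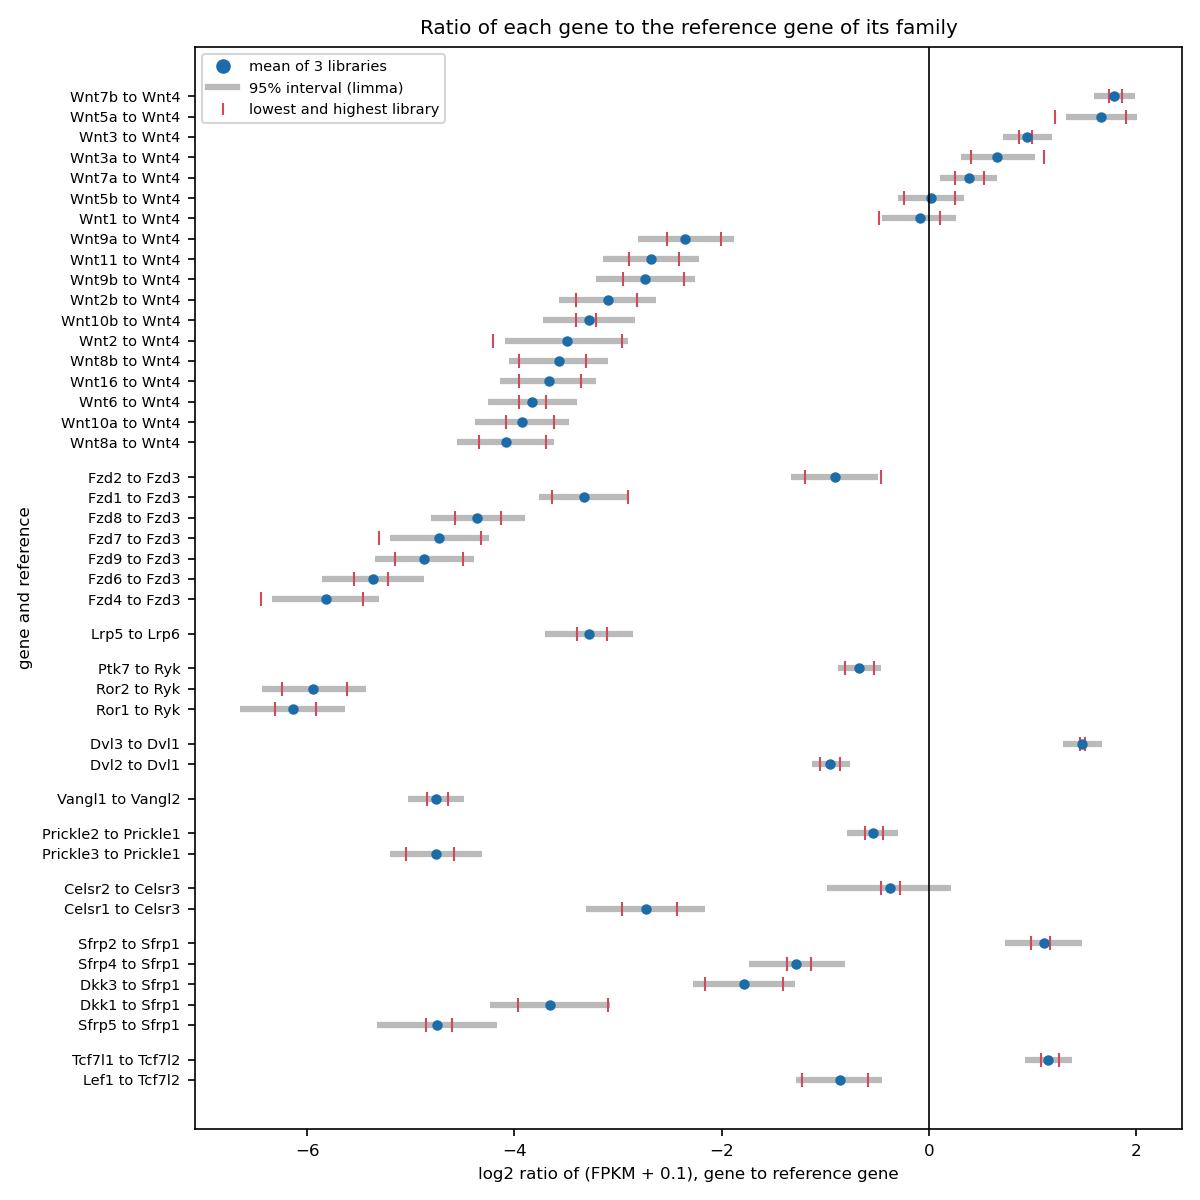
Log2 ratio of each member to the reference gene of its family on the log2(FPKM + 0.1) scale, with the mean of 3 libraries (points), limma's 95% interval (grey) and the lowest and highest library (red ticks). Wnt5b, Wnt1 and Celsr2 are the members whose grey interval includes 0.

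Secreted antagonists keep Wnt proteins from their receptors, and of these Sfrp2 was the highest member. Sfrp2 had 5.67, 9.67 and 7.97 FPKM and Sfrp1 2.81, 4.24 and 3.51, both lowest in library 1 and highest in library 2. Sfrp4 followed the same order with 1.22, 1.58 and 1.35 FPKM. Sfrp2 exceeded Sfrp1 by 2.15-fold (95% interval 1.66 to 2.80, 1.98 to 2.25 over the libraries, limma's adjusted p = 1.30e-08), with 50.0% of all entries higher than Sfrp1. Sfrp4 was lower than Sfrp1 by 2.42-fold (2.20 to 2.58 over the libraries). Sfrp5 (0.0333 ± 0.0153 FPKM), Dkk1 (0.187 ± 0.0551), an inhibitor that binds Lrp6, and its relative Dkk3 (0.75, 0.87 and 1.26 FPKM) did not lie above 1 FPKM. Of 5 antagonists compared, 4 were lower than Sfrp1, as were 42.1% of all entries. The log2 deviation of library 2 was 0.52 for Sfrp2, and 99.3% of described entries had a deviation as low or lower. The 7 progenitor markers had deviations from 0.05 (Slc1a3) to 0.45 (Fabp7) in the same library, with a median of 0.21. The 6 meningeal and fibroblast markers, of which Col3a1 passed and Dcn was at 0, summed to 3.36, 3.82 and 2.94 FPKM. The part of progenitors or meningeal cells in these levels was not tested.

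Ctnnb1, the gene of beta-catenin, was the highest of all members. Beta-catenin also joins cadherins to the cytoskeleton at cell contacts. Ctnnb1 had 165, 183 and 162 FPKM, and 97.6% of tested entries had a lower mean. The scaffold proteins that mark it for destruction were expressed as well. Apc had 42.3, 31.3 and 41.4 FPKM and was lowest in library 2. Axin1 had 15.4, 18.3 and 15.6 FPKM, and Axin2, a feedback inhibitor that Wnt signalling itself induces, had 10.6, 11.1 and 10.6.

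The transcription factors of the pathway were low beside these. Tcf7l1, which mainly represses, had 3.14, 3.15 and 3.31 FPKM, and Tcf7l2 had 1.39, 1.44 and 1.32. Lef1, itself often a Wnt target, had 0.77, 0.92 and 0.51 FPKM and did not lie above 1 FPKM. The groups of values did not overlap. Tcf7l1 exceeded Tcf7l2 by 2.23-fold (95% interval 1.90 to 2.61, 2.11 to 2.40 over the libraries, limma's adjusted p = 4.25e-06), with 60.8% of all entries higher than Tcf7l2. Lef1 was lower than Tcf7l2 by 1.82-fold (1.51 to 2.33 over the libraries), a call lost against a margin of 1.5-fold, and 33.8% of all entries were lower than Tcf7l2.

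Tcf and Lef factors bind DNA at words that begin with CTTTG. The 300-base promoter windows of RefSeq on GRCr8 were searched on both strands for CTTTGNN with A or T at both N positions, a word that cannot overlap a further match on its own strand. Of the 57 members above 0, 43 had a window, and 6 of these (14.0%) held a match. Of all 33469 windows, 17.1% did, a share close to that of the members. Matches stood in the windows of Axin2, Dkk1, Fzd7, Sfrp5, Wnt3 and Wnt8a. Axin2 and Dkk1, both known Wnt targets, each held 2 matches and are shown because their levels lie far apart, at 10.7 and 0.187 FPKM. The windows lie at chr10:94398535-94398834 on the plus strand for Axin2, at a start inside the annotated span of the gene, and at chr1:237798601-237798900 on the minus strand for Dkk1. Capitals mark the matches.
Axin2: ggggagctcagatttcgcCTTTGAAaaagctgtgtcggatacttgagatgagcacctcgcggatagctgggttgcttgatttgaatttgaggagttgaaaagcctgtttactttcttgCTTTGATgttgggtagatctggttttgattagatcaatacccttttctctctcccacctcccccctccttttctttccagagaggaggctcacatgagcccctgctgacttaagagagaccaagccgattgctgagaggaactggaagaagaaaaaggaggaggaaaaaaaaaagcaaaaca
Dkk1: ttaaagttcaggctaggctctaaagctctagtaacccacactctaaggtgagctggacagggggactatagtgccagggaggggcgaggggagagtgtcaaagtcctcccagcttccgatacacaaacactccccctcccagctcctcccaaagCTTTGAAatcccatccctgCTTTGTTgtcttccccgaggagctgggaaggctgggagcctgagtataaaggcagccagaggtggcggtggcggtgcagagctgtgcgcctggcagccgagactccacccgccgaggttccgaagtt
The Axin2 window holds 45.7% G and C and 5 CpG dinucleotides and the Dkk1 window 58.3% and 10. Over the 43 member windows the median was 65.3% and 24 CpG dinucleotides, against 51.7% and 7 over all windows. Member windows were limited to the first per symbol, while the whole set was not. Axin2 was not the only member with a window away from the outermost annotated start: those of Ctnnb1, Wnt4, Wnt5a, Dvl1, Dvl2 and Dvl3 were among the others. The median G and C share is given next by level. It was 65.7% for the 24 members above 1 FPKM and 64.3% for the 19 that were not. A match is a description of these letters and not evidence of binding.

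Each member's level in library 2 was set against the mean of libraries 1 and 3. Of the 19 members with a mean of at least 5 FPKM, 8 were lowest in library 2, against 18.6% of described entries, and 9 were highest there, against 69.6%. Celsr3 had the lowest deviation from libraries 1 and 3 on the log2 scale, -0.60, followed by Wnt5a (-0.47), Celsr2 (-0.44), Apc (-0.42), Fzd3 (-0.40) and Lrp6 (-0.28). At most 4.9% of described entries had deviations as low or lower than these. The deviations of the 20 listed long-transcript genes ran from Mdn1 at -1.29 to Nav3 at -0.40 in the same library. Vangl2 (0.05), Ptk7 (0.06) and the Dishevelled genes (-0.06 to -0.02) stayed near the levels of the other libraries. The 7 commissural neuron markers ran from Robo3 at -0.67 to Barhl2 at 0.25 there, with a median of -0.14. The part of transcript length or of cell makeup in the low values of the members was not tested.

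**Figure D4:**
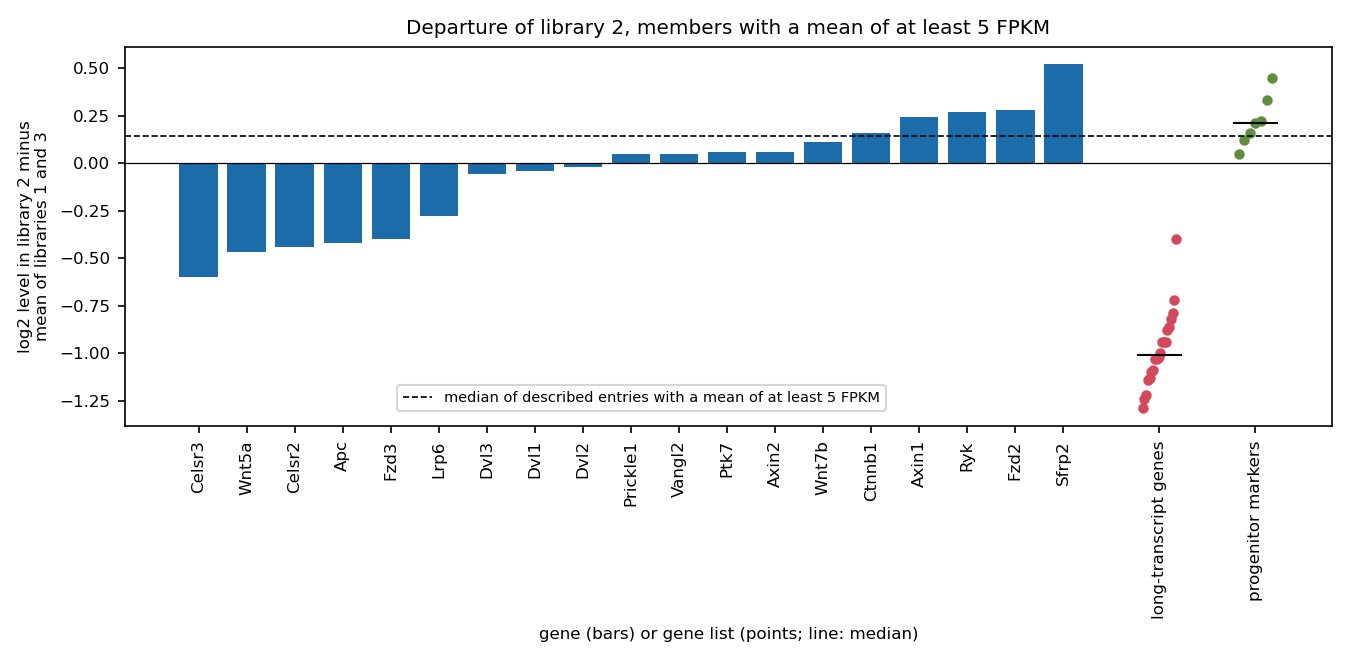
Log2 level in library 2 minus the mean of libraries 1 and 3 for the 19 members with a mean of at least 5 FPKM (bars), beside the 20 long-transcript genes and 7 progenitor markers (points, with the median as a line). The dashed line is the median of 8069 described entries, 0.14, and Celsr3, Wnt5a, Celsr2, Apc, Fzd3 and Lrp6 lie at -0.28 or below while the long-transcript genes have a median of -1.01.

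Other genes of the pathway were counted from lists chosen by known role. Of 5 matched genes for making, releasing and holding Wnt proteins, 4 lay above 1 FPKM in limma's test, beside 63.7% of all entries tested. Wls, which carries Wnt proteins to the cell surface, had 37.5, 44.1 and 40.2 FPKM, Porcn, the enzyme that attaches their lipid, 17.9, 18.6 and 19.8, and the glypican Gpc4 11.9, 12.4 and 12.9. Notum, an enzyme that removes the lipid and a Wnt target, was listed at 0 in each library and was not tested. Of 9 genes of R-spondin signalling and receptor turnover, 2 passed, the R-spondin receptor Lgr4 (20.4 ± 0.736 FPKM) and Znrf3 (2.99 ± 0.259), which removes Frizzled from the surface. The third highest, the ligand Rspo3, had 0.38, 0.35 and 0.84 FPKM, and Rspo4 was listed at 0 and was not tested.

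Some inhibitors outside the members lay above the members of their kind. Of 9 other secreted inhibitors and their receptors, 4 passed, beside 63.7% of all entries. Dkk4, a Dkk protein that binds Lrp6 as Dkk1 does, had 20.1, 22.8 and 22.4 FPKM, above every library of Sfrp2. Frzb, a further Sfrp-like protein, had 12.6, 17.6 and 12.5 FPKM. Kremen1, a Dkk receptor, had 2.10 ± 0.365 FPKM, Wif1 was the fourth to pass, and Kremen2 was the lowest at 0.0767 ± 0.0462.

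Partners inside the cell nearly all lay above 1 FPKM in limma's test, while 63.7% of all entries did. Of 16 planar polarity partners, 15 lay above 1 FPKM, led by the Jnk kinases Mapk8 (102 ± 3.23 FPKM) and Mapk10 (37.9 ± 0.674) and by the membrane protein Atp6ap2 (47.5 ± 3.01). Invs was the lowest at 1.17, 0.66 and 1.11 FPKM and did not pass. Of 21 beta-catenin pathway partners, 19 passed, led by the casein kinases Csnk1e (162 ± 5.16 FPKM), Csnk1a1 (145 ± 6.65) and Csnk1d (95.6 ± 4.49), with Tcf7 the lowest at 0.460 ± 0.0608. Of 7 further genes known to respond to Wnt signalling, 4 passed, and 2 listed at 0 in each library were not tested. The 63.7% counts tested entries only, so the count of 4 of 7 cannot be set against it. Id2 had 37.3 ± 3.80, Ccnd1 14.4 ± 0.850 and Myc 6.47 ± 0.895 FPKM, and Tnfrsf19 was the other that passed. Sp5 did not pass, and Cdx2 and Fgf20 were listed at 0 in each library. Id2, Ccnd1 and Myc respond to other signals too.

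**Figure D5:**
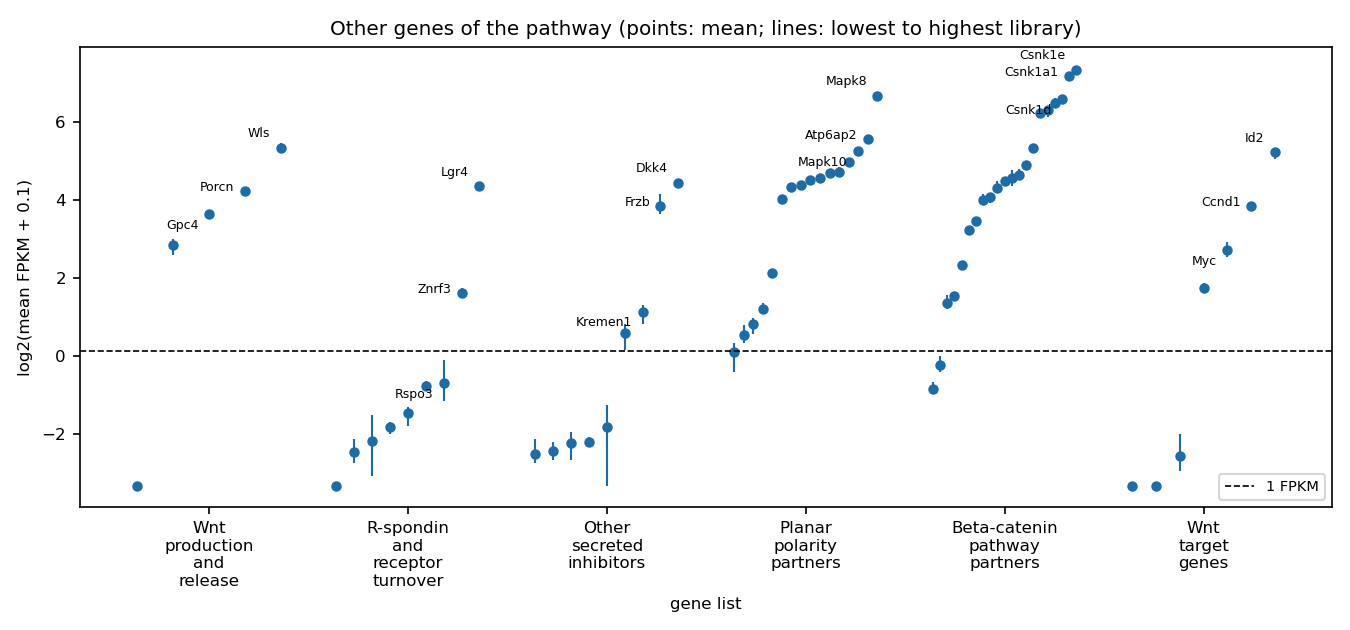
Mean level of the other pathway genes by list, as log2(mean FPKM + 0.1), with lines from the lowest to the highest library, the dashed line at 1 FPKM and the 3 highest genes of each list named. Most planar polarity and beta-catenin partners lie above the line, while the R-spondin and inhibitor lists hold 2 and 4 genes above it.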

How the data were processed

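Polyadenylated RNA was measured in 3 libraries of 1 group, with stranded libraries and paired reads of 50 bp per the labels' protocols. Tools named in the submitters' processing notes are STAR, Trimmomatic 0.22 and FastQC, with the build rn6. The authors deposited FPKM values. Their counting tool and annotation are not given in the sources used, so close relatives could share reads. Any 2 libraries shared the same value in 1.99% to 3.26% of entries above 0 in either, so all 3 counted as samples. The members and lists were chosen with earlier results of these data known. Every member is named or counted, as are the 3 highest genes and the lowest of each pathway list. 1 of 139 list genes matched no symbol and was not analysed.

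Values were used as log2(FPKM + 0.1). All 17611 entries above 0 in at least 1 library were fitted with limma 3.58.1 (robust prior with trend, statmod 1.5.0, R 4.3.3), one-sided against 1 FPKM, and as two-sided ratios to 10 reference genes chosen by known role. Benjamini-Hochberg adjustment ran over all entries, with a threshold of 0.05. With 3 libraries an exact two-sided sign-flip permutation test, the form that matches the ratios, reaches p = 0.25 at best. Tests were checked on simulated data: of 50 genes simulated at 1.5 times 1 FPKM among 17611, 49 were called, and of 50 at 1 FPKM, 0 were. In the ratio test, 49 of 50 genes simulated 1.5-fold below Fzd3 were called, and 1 of 50 at its level. The simulated noise was independent between genes, so a shift that genes share, as in library 2, was not covered. RefSeq names and windows (GRCr8) were matched by symbol, for 59 of 59 members and 43 windows. Neighbouring genes were read from GRCr8 as well. Figures used matplotlib 3.10.9, pandas 2.3.3 and Python 3.11.15.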

Additional observations from a re-analysis of the deposited data

How the results depend on the processing

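All 34 members above 1 FPKM kept their call under pseudocounts of 0.01 and 1, other filters, another variance prior, a common upper quartile, a common sum of entries at or below 10000 FPKM and each library left out, and only Fzd7 was gained, without library 1. Scaled to a sum of 1000000, 5 members passed: 0 Wnt ligands, 1 Frizzled receptor, 0 other receptors, 0 secreted antagonists, 1 Dishevelled, 1 core planar polarity and 2 beta-catenin arm genes (0 of the ligands, other receptors and antagonists had an unadjusted p under 0.05 in limma's test). At a level of 5 FPKM, 18 members passed: 1 Wnt ligand, 2 Frizzled receptors, 1 secreted antagonist and 4 core planar polarity genes among them. At 0.5 FPKM, 7 Frizzled receptors passed. The share of all entries was computed only for 1 FPKM on the deposited scale. The counts at other levels or scales therefore cannot be compared with the whole table. With entries of a mean under 0.1 FPKM left out, 9 Wnt ligands differed from Wnt4, since fewer were tested. With a margin of 1.5-fold, 1 gene differed from Prickle1 and 1 from Tcf7l2. Of the 2 genes compared with Celsr3, 1 to 2 differed when a library was left out, and 2 did with both genes' variances summed. No comparison between groups, paired or not, was possible because the series has 1 group. FPKM gives no depth, so the counting error of low values is unknown.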
